A study of Mus musculus with 2 samples.

Results

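The neuronal microRNAs miR-128, miR-129, miR-137, miR-153 and miR-218, together with miR-338 and miR-383, were examined in the adrenal glands of newborn mice. They are encoded by 10 miRNA genes, which were taken from the count tables by matching Ensembl identifiers to GENCODE mouse symbols, and they are 10 of 1973 gene rows. The samples were 2 libraries of small RNA, each from the 2 adrenals of 1 pup of strain B6NCrl at postnatal day 0. Both pups came from 1 pregnancy, carried no genetic change or treatment named in the labels, and were of uncollected sex. The libraries are called pup 1 and pup 2 and form 1 group, so levels can be described and pups compared, but no p-value can be given. The labels describe separate pups but give both the same donor identifier, so the spread between the libraries may be technical.

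MicroRNAs (miRNAs) are short strands cut from the arms of hairpin transcripts, and the seed, bases 2 to 8 of the mature strand, pairs with target transcripts. Most of the miRNAs described here are known mainly from the nervous system. In the newborn adrenal, the medulla holds chromaffin cells, which derive from the neural crest as sympathetic neurons do, and nerve fibres and their Schwann cells enter the gland through the cortex.

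The mature strands are shown first, because their sequences decide which reads could be counted. Of the 10 genes, 9 had a hairpin and mature arms in the RefSeq table of assembly GRCm38.p6. The following arms are written 5′ to 3′ with the seed in capitals, first those found in 1 hairpin and then those found in 2.
miR-137-3p: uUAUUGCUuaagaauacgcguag
miR-153-3p: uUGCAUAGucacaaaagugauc
miR-338-3p: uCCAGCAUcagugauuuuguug
miR-128-3p: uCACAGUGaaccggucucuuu
miR-129-5p: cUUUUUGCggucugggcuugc
miR-218-5p: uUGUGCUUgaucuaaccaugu
Each of these 6 strands had a seed of its own. Among 1679 mature names in the table, only miR-7002-3p shared a seed with any of them, that of miR-218-5p. Its gene Mir7002 had 0 counts in pup 1 and 1 count in pup 2.

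The arms of miR-137, miR-153 and miR-338 occurred in a single hairpin each among 1005 hairpin genes. By contrast, miR-128-3p, miR-129-5p and miR-218-5p are each encoded by a pair of hairpins on different chromosomes. In the hairpins below, capitals mark stretches of at least 20 bases that both copies of a pair hold.
Mir128-1: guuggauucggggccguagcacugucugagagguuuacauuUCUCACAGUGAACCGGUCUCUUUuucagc
Mir128-2: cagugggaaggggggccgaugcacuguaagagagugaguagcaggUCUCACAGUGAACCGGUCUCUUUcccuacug
Mir129-1: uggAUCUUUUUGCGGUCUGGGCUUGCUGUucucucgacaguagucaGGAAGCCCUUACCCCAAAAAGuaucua
Mir129-2: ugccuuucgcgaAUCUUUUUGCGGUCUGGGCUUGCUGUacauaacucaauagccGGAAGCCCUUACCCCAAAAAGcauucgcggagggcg
Mir218-1: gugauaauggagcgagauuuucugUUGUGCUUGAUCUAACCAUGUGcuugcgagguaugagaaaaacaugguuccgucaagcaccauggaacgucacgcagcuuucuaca
Mir218-2: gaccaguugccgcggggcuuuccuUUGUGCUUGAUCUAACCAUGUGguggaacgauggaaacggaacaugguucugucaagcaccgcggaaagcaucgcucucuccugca
The shared stretch is 23 bases long in the miR-128 pair and 22 bases in the miR-218 pair. The miR-129 pair shares a stretch of 26 bases on the 5′ arm and another of 21 bases on the 3′ arm.

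A read that lies within a shared stretch has more than 1 possible origin, and the deposited tables set such multi-mapped reads apart from the gene rows. They were 34.9% of all reads in pup 1 and 32.2% in pup 2, and their genes of origin are not given. The levels of Mir128-1, Mir128-2, Mir129-1, Mir129-2, Mir218-1 and Mir218-2 therefore cover only reads that could be placed at 1 locus. These can come from the opposite arms, which differ between copies. The arms miR-128-1-5p (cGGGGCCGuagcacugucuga) and miR-128-2-5p (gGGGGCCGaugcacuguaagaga) have the same seed. The first differs from the best ungapped stretch of the Mir128-2 hairpin at 5 positions, C1G, U9A, A10U, C18A and U19A, counted from the 5′ end of the arm. The arm miR-218-1-3p (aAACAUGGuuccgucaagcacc) differs from the Mir218-2 hairpin at 2 positions, A1G and C12U. For miR-218-2-3p (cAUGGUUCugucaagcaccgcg), the differences from the Mir218-1 hairpin were U9C, G20A and C21U. In the miR-129 pair, miR-129-2-3p (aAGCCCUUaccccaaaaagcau) differs from the Mir129-1 hairpin by 1 base, C20U. The tables count reads per gene and do not say which arm was read.

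The 10 neuronal miRNA genes together took a small part of the singly placed adrenal miRNA counts, and Mir137 gave more than all the others combined. Multi-mapped reads of the miR-128, miR-129 and miR-218 pairs are not in these counts. The sum and the share of Mir137 therefore cover placed reads only. The sum of the 10 genes was 1481 of 1131762 same-strand gene counts in pup 1 and 4511 of 3327743 in pup 2. These sums were 0.131% of counts in pup 1 (exact 95% binomial interval 0.124 to 0.138) and 0.136% in pup 2 (0.132 to 0.140), and the intervals overlap. With each library scaled to 1000000 same-strand gene counts (CPM), the sum was 1332 ± 33.2 CPM (SD, n = 2). Mir137 made up 57.9% ± 0.595 of it (SD, n = 2), and with Mir338 added the share was 76.7% in pup 1 and 75.7% in pup 2. In whole glands, fewer cells of a type and less miRNA per cell cannot be told apart.

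All 10 genes had a count in both pups, where 23.0% of all gene rows did. At least 10 CPM in both pups, the level called detected here, was reached by 9 of 10 genes, against 13.9% of all rows. The median of their mean levels was 35.0 CPM, beside 5.38 CPM over the 635 rows with any count. The mean levels ran from 771 CPM for Mir137 down to 8.01 CPM for Mir383, a 96.3-fold range.

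**Figure D1:**
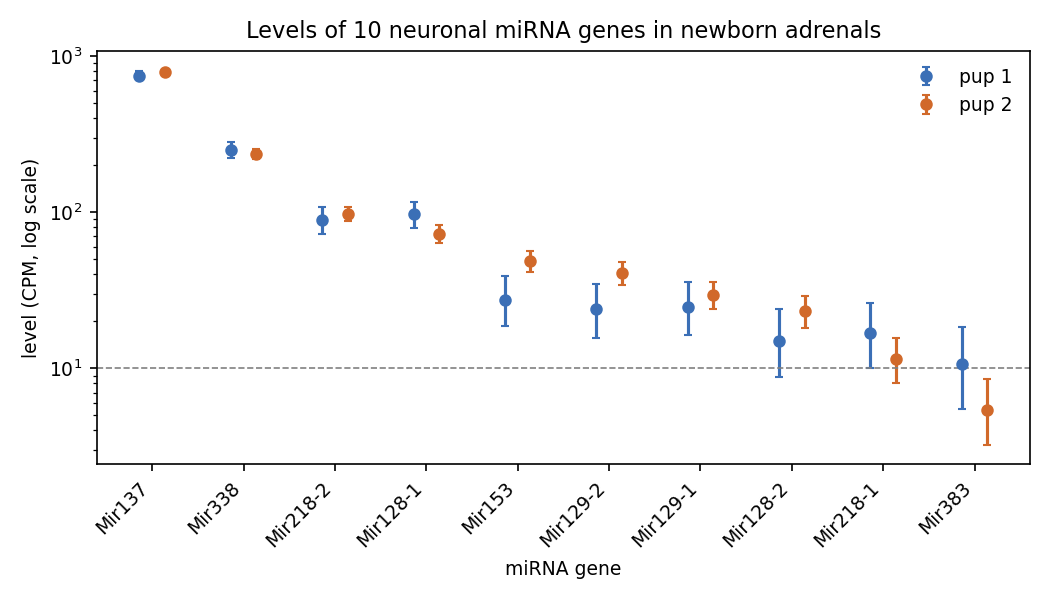
Level of each of the 10 genes in CPM on a log axis, with 1 point per pup and exact 95% Poisson intervals that cover counting error only; the dashed line is 10 CPM. The pups lie together for Mir137, Mir338 and Mir218-2, and only the pup 2 point of Mir383 lies below the line.

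Mir137, which acts in neural stem cells and maturing neurons, had the highest level of the 10 in placed reads. It had 851 counts or 752 CPM in pup 1 (exact 95% Poisson interval 702 to 804) and 2630 counts or 790 CPM in pup 2 (760 to 821). In CPM, the pups thus differed by no more than counting allows, though this depends on how the libraries are scaled. With edgeR's TMM scaling, the log2 ratio of pup 2 over pup 1 was 0.18 instead of 0.07, and no interval was computed. The lowest Mir137 level was well above the highest of any other member. Its mean of 771 ± 27.2 CPM (SD, n = 2) ranked 87 among all rows, with 86.3% of the counted genes below it. The gene (ENSMUSG00000065569.1) lies at chr3:118433857-118433929 on the plus strand of mm10, in an exon of the noncoding transcript gene Gm26871, 3.53 kb from its start. Both Gm26871 transcripts that span Mir137 hold it in an exon. Another annotated miRNA gene of the same transcript gene, Gm24155, lies 792 bases from Mir137 and had 0 counts in both pups. By level in the pups, the 3 genes nearest to Mir137 were Mir467d of the Sfmbt2 intron cluster, the myeloid Mir223 and Mir483 of the Igf2 intron. Their distances from Mir137 were 0.07, 0.19 and 0.22 on the log2 scale over the 2 libraries, which is a description of level only.

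Mir338, known for its role in oligodendrocyte maturation, came next. It had 285 counts or 252 CPM in pup 1 and 787 counts or 236 CPM in pup 2, a mean of 244 ± 10.8 CPM (SD, n = 2). The pups lay within counting error of each other, and both stood above every member other than Mir137. The gene (ENSMUSG00000065600.1) lies at chr11:120014765-120014862 on the minus strand, in an intron of 1724 bases in Aatk, a gene for a kinase expressed in the nervous system. The annotation of the same assembly places a further miRNA gene, Mir3065, on the opposite strand of this hairpin. Its mature strand, miR-3065-5p (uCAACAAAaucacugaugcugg), overlaps the complement of miR-338-3p. Mir3065 has no row of its own here, but the opposite-strand column of Mir338 covers nearly the same bases. That column held 1 count in pup 1 and 2 in pup 2, beside 285 and 787 same-strand counts, so almost all reads at this locus came from the Mir338 strand. The 3 genes nearest to Mir338 in level were Mir146, Mir451a and Mir668, at distances of 0.11, 0.16 and 0.17 on the log2 scale.

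Mir153 and Mir383 are the other members with no second copy in this set, and both were low. Mir153 is a brain-enriched miRNA that represses components of synaptic vesicle release. It had 31 counts or 27.4 CPM in pup 1 and 161 counts or 48.4 CPM in pup 2, with a mean of 37.9 ± 14.8 CPM (SD, n = 2). The counting intervals, 18.6 to 38.9 CPM in pup 1 and 41.2 to 56.5 CPM in pup 2, do not overlap. Mir153 (ENSMUSG00000065538.1, chr12:117250817-117250885, plus strand) lies in intron 19 of Ptprn2, which encodes a membrane protein of the secretory granules of neuroendocrine cells. An antisense gene, Gm5441, also spans it, and its opposite-strand counts were 0 in both pups. Mir383 had 12 counts or 10.6 CPM in pup 1 and 18 counts or 5.41 CPM in pup 2. Its mean of 8.01 ± 3.67 CPM (SD, n = 2) was the lowest of the 10, and its level in pup 2 left it outside the detected genes. Its intervals in the pups overlapped, at 5.48 to 18.5 and 3.21 to 8.55 CPM. Mir383 (ENSMUSG00000065457.2, chr8:38252133-38252202, minus strand) lies in the first intron of Sgcz, a sarcoglycan gene, and that intron is 707667 bases long.

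The miR-218 pair lies within the genes Slit2 and Slit3, which encode secreted axon guidance ligands of Robo receptors, and miR-218 itself is known from motor neurons. Mir218-2, in the Slit3 intron, had 101 counts or 89.2 CPM in pup 1 and 325 counts or 97.7 CPM in pup 2. Mir218-1, in the Slit2 intron, had 19 counts or 16.8 CPM in pup 1 and 38 counts or 11.4 CPM in pup 2. In placed reads, the Slit3 copy was thus above the Slit2 copy in both pups. Reads within the shared stretch are not counted, so the full output of the copies cannot be ranked. Mir218-1 gave 15.8% of the placed reads of the pair in pup 1 (exact 95% binomial interval 9.81 to 23.6) and 10.5% in pup 2 (7.52 to 14.1), so the share stayed below an even split in each library and the intervals of the pups overlapped. Both hairpins lie in the intron numbered 14 of a transcript with 36 exons. Mir218-1 (ENSMUSG00000065603.1) is at chr5:48223942-48224051 and Mir218-2 (ENSMUSG00000065583.1) at chr11:35616816-35616925, both on the plus strand.

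The miR-128 pair, enriched in neurons and known to dampen their excitability, was also uneven in placed reads, with the copy in R3hdm1 ahead. Here too, reads within the shared stretch are not counted. Mir128-1 had 110 counts or 97.2 CPM in pup 1 and 242 counts or 72.7 CPM in pup 2. Mir128-2, which lies in an intron of Arpp21, a gene for a phosphoprotein of neurons, had 17 counts or 15.0 CPM in pup 1 and 77 counts or 23.1 CPM in pup 2. Mir128-1 gave 86.6% of the placed reads of the pair in pup 1 (79.4 to 92.0) and 75.9% in pup 2 (70.8 to 80.5). The mean share was 81.2% ± 7.60 (SD, n = 2), and the pups' intervals touch over a narrow range, so the imbalance is common to both pups while its size is loosely fixed. Mir128-1 (ENSMUSG00000065520.1) lies at chr1:128202361-128202430 on the plus strand in an intron of 14107 bases. Mir128-2 (ENSMUSG00000065441.1) lies at chr9:112118636-112118711 on the minus strand, 471 bases downstream of an Arpp21 exon.

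The miR-129 pair, which is enriched in brain, was closer to an even split in both pups than the miR-128 and miR-218 pairs. Mir129-1 had 28 counts or 24.7 CPM in pup 1 and 98 counts or 29.4 CPM in pup 2. Mir129-2 had 27 counts or 23.9 CPM in pup 1 and 135 counts or 40.6 CPM in pup 2. The share of Mir129-1 was 50.9% in pup 1 (37.1 to 64.6), an interval that holds an even split, and 42.1% in pup 2 (35.6 to 48.7), one that does not. Because these hairpins share stretches on both arms, reads within those stretches cannot tell them apart, and the share covers the other reads only. Mir129-1 (ENSMUSG00000065469.1, chr6:29022619-29022691, plus strand) lies in an exon of the noncoding gene Gm3294. Mir129-2 (ENSMUSG00000065511.1, chr2:94241364-94241453, minus strand) lies in an intron of the noncoding gene Mir670hg. That host also holds Mir670, 19847 bases away, which had 8 counts or 7.07 CPM in pup 1 and 30 counts or 9.02 CPM in pup 2. It holds Gm23630 as well, with 0 counts in both pups. The annotated gene Mir129b lies on the strand opposite Mir129-2 and has no row of its own here. The opposite-strand column of Mir129-2 held 0 counts in pup 1 and 2 in pup 2.

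In order of mean level the genes were Mir137, Mir338, Mir218-2, Mir128-1, Mir153, Mir129-2, Mir129-1, Mir128-2, Mir218-1 and Mir383. The values of the pups overlapped between Mir218-2 and Mir128-1, between Mir153 and Mir129-2, between Mir129-2 and Mir129-1, and between Mir128-2 and Mir218-1. These neighbours cannot be ordered. Counting intervals also overlapped between Mir129-1 and Mir128-2 and between Mir218-1 and Mir383. The order of the genes below Mir128-1 is therefore only partly fixed. The median level was 141 CPM over the 4 genes without a copy in this set. It was 29.7 CPM over the 6 genes of the pairs. Of the 4 genes, Mir137 and Mir338 had mean levels above every gene of the pairs. Mir153 lay within the range of the pairs, and Mir383 lay below it. Mir383 had no sequence with which to check for copies. Multi-mapped reads of the pairs are not counted, and their part in this gap was not tested.

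**Figure D2:**
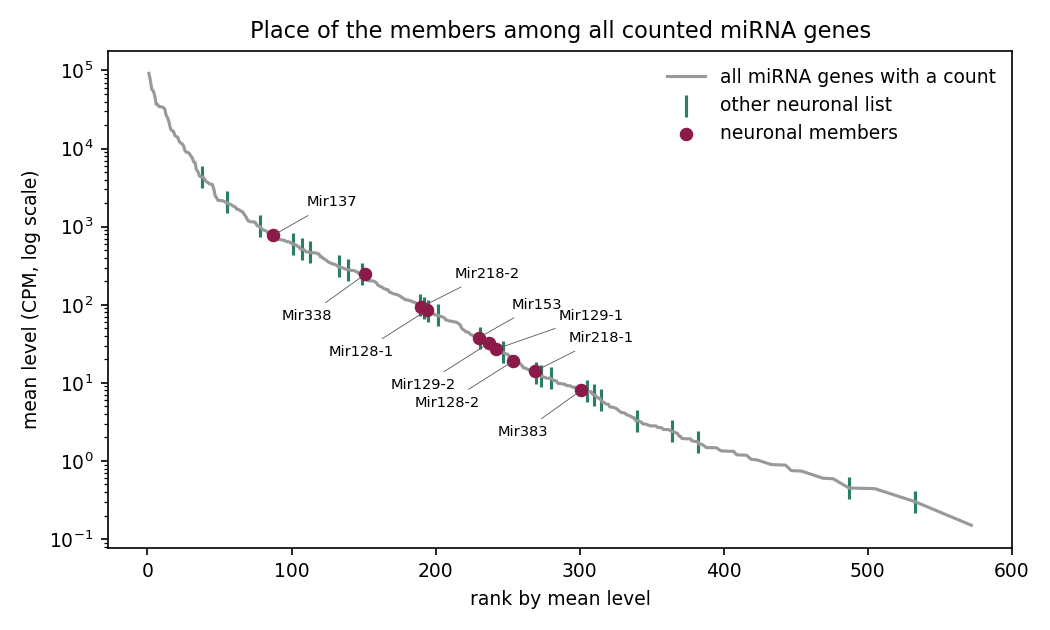
Mean level of all counted miRNA genes in CPM on a log axis against their rank, with the 10 neuronal genes as points and the counted genes of the other neuronal list as ticks. The 10 genes run from rank 87 (Mir137) to rank 301 (Mir383), and ticks lie on both sides of that range.

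All 10 genes lie inside a longer gene annotated on the same strand. This holds for 54.5% of the 1894 rows with a symbol and for 63.3% of the 275 detected genes. The host was protein-coding for 7 of the 10 genes, beside 45.1% of all rows with a symbol and 40.4% of the detected genes. These 7 hairpins, those in R3hdm1, Arpp21, Slit2, Slit3, Aatk, Ptprn2 and Sgcz, were in introns of every spanning transcript. The noncoding hosts held Mir137 and Mir129-1 in an exon and Mir129-2 in an intron. Hairpins lay from 3.53 kb (Mir137) to 765 kb (Mir153) from the start of the host. No messenger RNA was measured in these libraries, so the level of an intronic miRNA cannot be set against that of its host. None of the 7 protein-coding hosts held another miRNA gene on the same strand.

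**Figure D3:**
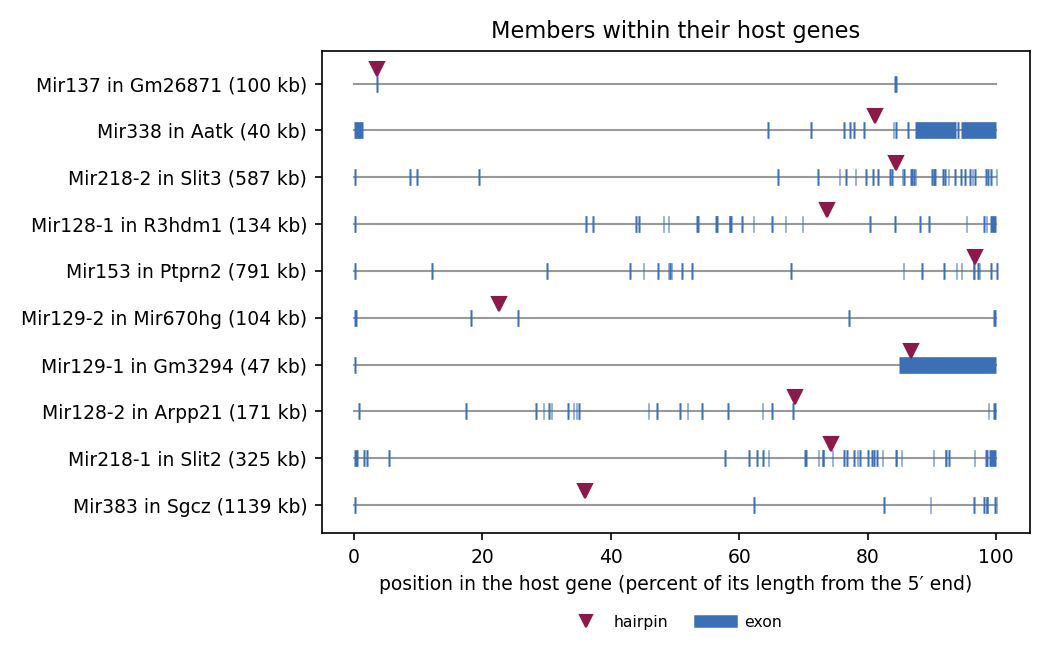
Position of each hairpin (triangle) in its host gene, as percent of the host's length from its 5′ end, with the exons of 1 annotated transcript as bars; hosts are drawn to the same width and their lengths in kb are given at the left. Mir137 sits 3.54% along Gm26871 and Mir153 sits 96.7% along Ptprn2.

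The pups were compared gene by gene. Of the 9 members whose mean reached 10 CPM, 0 differed by 2-fold or more, where 5.28% of the 284 genes at that level did (3.52% higher and 1.76% lower in pup 2). The log2 ratio of pup 2 over pup 1, with 1 CPM added to each, had a median of 0.13 over the 9 genes and 0.08 over all 284. Levels were higher in pup 2 for 6 of 9 genes, beside 58.1% of all genes, and lower for Mir338, Mir128-1 and Mir218-1. With edgeR's TMM scaling, which moved the median log2 ratio of all 284 genes up by 0.10, Mir338 was at 0.02 instead of -0.09, and 7 of 9 genes were higher.

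The plain ratio of CPM departed from 1 by more than counting error for 3 of the 9 genes, beside 63.0% of the 284 genes, many of which have more counts and narrower intervals. Mir153 was 1.77-fold higher in pup 2 (exact conditional 95% interval 1.20 to 2.69), and Mir129-2 was 1.70-fold higher (1.12 to 2.67). Mir128-1 had a ratio of 0.748 (0.595 to 0.946). The ratio was 1.05 (0.973 to 1.14) for Mir137 and 0.939 (0.819 to 1.08) for Mir338, so the most deeply counted members were also the closest between pups. For Mir383, below the level filter, the ratio was 0.510 (0.232 to 1.16). These intervals leave out variation between animals, which 1 library per pup cannot show. They also hold for CPM only. With TMM scaling, the log2 ratio was 0.18 instead of 0.07 for Mir137 and -0.31 instead of -0.41 for Mir128-1. Intervals were not computed with TMM, so which genes depart from 1 may differ by scaling.

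**Figure D4:**
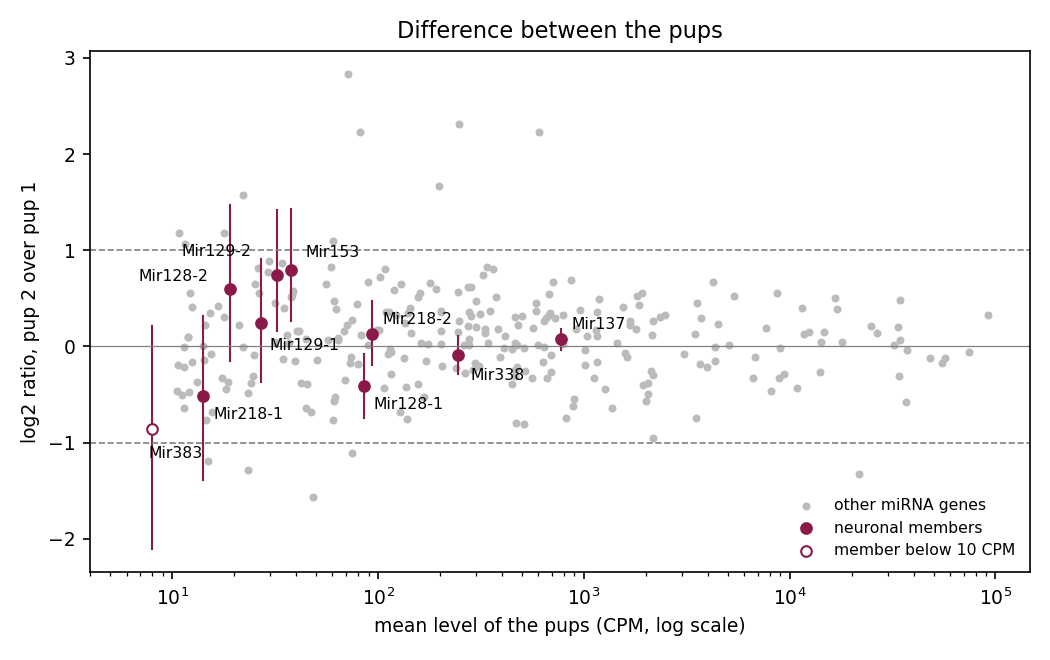
Log2 ratio of pup 2 over pup 1 (1 CPM added) against the mean level in CPM on a log axis for the 284 genes at 10 CPM or more, with the neuronal genes in colour and Mir383, below that level, as an open point. Vertical lines are exact 95% counting intervals of the plain ratio, dashed lines mark 2-fold, and all 10 points lie between them.

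Other miRNAs known from neurons spanned a wider range of levels. Of 36 genes on that list, 33 had a row, 16 were detected and 7 had 0 counts in both pups. Of all 1973 gene rows, 13.9% were detected, and only 635 had a count in either pup. The leading ones were Mir149 with 4579 CPM in pup 1 and 4110.0 CPM in pup 2, Mir433 with 2402 and 1704 CPM, and Mir134 with 1078 and 942 CPM, all above Mir137. Mir433 and Mir134 belong to the imprinted Dlk1-Dio3 locus, which is active in many embryonic tissues. Among the 18 listed genes whose mean reached 10 CPM, 0 differed by 2-fold or more between the pups, 8 were higher in pup 2 and 10 lower, with a median log2 ratio of -0.09.

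The genes at 0 were Mir9-2, Mir9-3, Mir124a-1, Mir124a-2, Mir124a-3, Mir344 and Mir876. Mir124a and Mir9 are the defining miRNAs of differentiated neurons and neural progenitors. By a floor of 3 counts, a gene at 0 may still have had up to 2.65 CPM of singly placed reads in the library of pup 1, and up to 0.902 CPM in that of pup 2. Multi-mapped reads are outside this limit, so it does not bound a miRNA encoded at several loci. For Mir9-2, Mir9-3 and Mir344, every mature arm in the table also occurs in another hairpin, so their 0 covers only reads that reach beyond the shared arm. For the 3 Mir124a genes, sharing was not checked here. Among the listed genes with an arm in the table, the 20 with no shared arm had 1 gene at 0, Mir876, and a median of 68.1 CPM. The 5 genes with some arms shared, such as Mir138-1 at 82.1 CPM and Mir219a-1 at 13.2 CPM, ran from 0.451 to 82.1 CPM. Their median was 13.2 CPM. Of the 4 genes with every arm shared, 3 were at 0, and Mir219a-2 had 7.86 CPM. The 3 Mir124a genes and Mir874, which had a mean of 89.6 CPM, have no arm in the table and are in none of these groups. The part of arm sharing in these levels was not tested. The oligodendrocyte miRNAs Mir219a-1 and Mir219a-2, which often accompany miR-338, thus had levels far below the 244 CPM of Mir338, but in placed reads only.

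Depth and other cells were read from a marker list, as whole-gland libraries hold every cell type. Pup 2 had 2.94 times the same-strand gene counts of pup 1. Summed levels of markers were 81621 and 102288 CPM in pup 1 and pup 2 for endothelium (Mir126a), 39765 and 33410 CPM for neuroendocrine cells (all 4 of Mir375, Mir7-1, Mir7-2 and Mir7b), and 15116 and 19776 CPM for smooth muscle (both genes). The neuroendocrine sum followed Mir375, with 37586 CPM in pup 1 and 30415 CPM in pup 2. Mir7-2 was also lower in pup 2, with 315 and 265 CPM. By contrast, Mir7b had 1557 and 2293 CPM and Mir7-1 had 307 and 438 CPM. The other sums were 2979 and 4081 CPM for hepatocytes, 704 and 883 CPM for myeloid cells, 339 and 337 CPM for erythroid cells and 293 and 352 CPM for kidney epithelium (5 of 5 genes with a count). Within the kidney list, Mir215 had 72.5 and 23.7 CPM and Mir194-1 had 13.3 and 2.70 CPM, against the direction of the sum. The erythroid sum was mostly Mir451a, with 261 and 263 CPM. Mir144 had 20.3 and 38.5 CPM, and Mir486 had 58.3 and 36.1 CPM. The oligodendrocyte markers, which include Mir338 itself, had 277 and 254 CPM with 3 of 3 genes counted. Epithelial markers had 214 and 597 CPM, with all 5 genes counted. Skeletal muscle markers had 82.2 and 412 CPM, with 2 of 5 measured genes counted, nearly all of it from Mir206 with 82.2 and 411 CPM. Mir133b had 0 and 4 counts, and Mir1a-1, Mir133a-1 and Mir133a-2 had 0 in both pups. All these marker levels leave out multi-mapped reads. Sharing of arms was not checked for the muscle, Mir7 and Mir194 genes. The muscle genes at 0 are therefore not shown to be absent, and the lead of Mir206 holds for placed reads only. The epithelial and muscle sums were the ones more than 2-fold higher in pup 2, and their part in the higher Mir153 and Mir129-2 levels of pup 2 was not tested. The 5 measured neuron markers, of the Mir124a and Mir9 genes, were at 0 in both pups. These counts leave out multi-mapped reads, both arms of Mir9-2 and Mir9-3 are shared and the Mir124a arms were not checked, so the 0 does not show that these miRNAs were absent.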

How the data were processed

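Small RNA below 30 nucleotides was sequenced from 2 newborn mouse adrenal samples, and each library has its own table of raw counts by miRNA gene, as deposited, neither scaled nor pooled. Per the file headers and notes among the deposited files, reads were placed on mm10 with annotation M4. The aligner is not given in the sources used here. Each table holds 3 count columns (unstranded, same strand, opposite strand) and 4 rows that name no gene. In pup 1 and pup 2, same-strand gene counts were 50.4% and 52.7% of all reads, multi-mapped reads 34.9% and 32.2%, unmapped reads 10.6% and 11.2%, and reads outside genes 4.03% and 3.86%. The rows without a gene were left out of library sizes.

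CPM was computed as the same-strand count over its gene total. Symbols (1894 of 1973 rows), positions and hosts came from GENCODE M21 of the same assembly, and sequences from RefSeq GRCm38.p6. Sharing of arms was checked among 1005 hairpins and not in the whole genome. Intervals are exact (Poisson, Clopper-Pearson, conditional) at 95% and, like the floor of 3 counts, cover counting error only, since reads without molecular identifiers are not independent molecules. Ratio and interval code was tested on simulated data. No p-value was computed, as each pup has 1 library. Python 3.11.15, scipy 1.17.1, edgeR 4.0.16 and DESeq2 1.42.0 (for scaling factors only) were used.

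The members and gene lists were chosen with earlier results of these data known. Named genes were the 10 members, other miRNA genes in their hosts or within 10 kb, the 3 genes nearest in level to each of the 2 most abundant members, the 3 most abundant genes of the other neuronal list and those with 0 counts in both pups, and the markers. Mir7002, Mir138-1, Mir219a-1 and Mir219a-2 were added after their values were seen. Alternatives varied the denominator, strand column, scaling, prior, filter, detection level and library.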

Additional observations from a re-analysis of the deposited data

How the results depend on the processing

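With all reads of a library as the denominator, in place of same-strand gene counts, the summed level of the 10 genes was 687 CPM, and with the unstranded column it was 1290 CPM, against 1332 CPM. Without replicate 1 or without replicate 2, the sum lay between 1309 and 1356 CPM, and 9 or 10 of the 10 genes reached 10 CPM. The Mir128-1 share of its pair lay between 75.9% and 86.6%, the Mir129-1 share between 42.1% and 50.9%, and the Mir218-1 share between 10.5% and 15.8%. No member passed 2-fold with TMM, DESeq2 size factors, a prior of 5 CPM, the unstranded column or a lower filter. Genes at least 2-fold apart numbered 15 of 284 (10 higher in pup 2, 5 lower). They became 63 of 432 with a filter of 1 CPM (24 higher, 39 lower). With any counted gene they were 85 of 635 (42 higher, 43 lower). Both of these filters admit genes of few counts. All 10 genes passed a detection level of 1 CPM or 5 CPM. Members under about 20 counts, such as Mir383, are limited by depth. No paired analysis was possible because the samples form 1 group.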
